A study of Mus musculus with 36 samples.

Results

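The amino acid transport and Atf4 response comprised 32 named genes, listed by what they are known to do. The list was made with earlier results of these data known. It holds 5 transcription factors, 7 amino acid transporters, 8 enzymes of amino acid and one-carbon metabolism, 6 cytosolic tRNA synthetases and 6 regulators of stress and growth. All 32 were found among the 26709 genes of the RNA table, and all 32 passed the filter on low values that left 16209 genes for testing. Values came from cortical neurons of CD-1 mouse embryos (day 15, tissue of the embryos pooled) kept for 7 days in vitro. Cultures were silenced for 2 h with 100 µM AP-5, which blocks NMDA receptors, and 1 µM TTX, which blocks sodium channels, and then received 10 ng/ml BDNF, a neurotrophin that signals through the TrkB receptor, or 55 mM KCl, which depolarises the membrane. RNA-seq and ATAC-seq, a measure of open chromatin, each had 2 libraries at 1, 6 and 10 h of each stimulus (called A and B here), and 6 control libraries from cultures that stayed in AP-5 and TTX for 3, 8 or 12 h in all, 2 at each time, which were pooled as 1 control level. RNA letters are those of the labels, whereas ATAC letters were given by order. A letter shared by an RNA and an ATAC library therefore does not mark the same culture. Genotype and strain were the same throughout. The study's methods add KCl as a concentrated salt buffer to the culture medium, so depolarisation and dilution of the medium and its amino acids cannot be told apart in the KCl groups. Whether controls received an equal volume is not given in the sources used here. Both libraries of a group are called biological replicates by the study. P-values rest on the spread between such pairs and among the 6 pooled controls, with information on the spread shared across all genes or peaks tested.

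Atf4 is a bZIP transcription factor whose mRNA carries upstream reading frames. When one of the eIF2 kinases phosphorylates the initiation factor eIF2, on amino acid shortage, unfolded protein in the endoplasmic reticulum or other stress, general translation falls and translation of Atf4 rises. Atf4 protein, with Cebp partners, then binds composite elements in genes for amino acid import, amino acid synthesis and tRNA charging, and induces Ddit3, Trib3 and Chac1, while Ppp1r15a, the stress-induced subunit of the eIF2 phosphatase, reverses the phosphorylation. The values reported here are mRNA levels and open chromatin, and neither Atf4 protein nor eIF2 phosphorylation was measured. In bulk samples of this kind, fewer cells of a type and less RNA per cell cannot be told apart.

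The promoters of 26 members were read from the RefSeq table for GRCm38.p6, each from 250 bases before to 50 after the transcription start. The stretches printed here are shown because composite elements of Atf4 and Cebp factors are what many of these genes are known for. The short form TTGCATCA occurred, on either strand, in 3 of the 26 (*Slc7a11*, *Slc1a4* and *Chac1*) and in 1.03% of all 27025 genes with a promoter. The looser form TGATGNAAN, whose letters cover the reverse complement of the short form, occurred in 7 of the 26 (these 3 with *Asns*, *Pck2*, *Gars* and *Trib3*) and in 4.5% of all. Capitals mark the looser form in the first 7 lines, the cyclic AMP response element TGACGTCA in *Ppp1r15a* (1 of 26 members, 2.03% of all) and the AP-1 element TGANTCA in *Slc7a1* and *Ddit3* (2 of 26, 8.97% of all). Each line runs 5′ to 3′ on the strand of the gene, and a match is a description of letters only.
Chac1: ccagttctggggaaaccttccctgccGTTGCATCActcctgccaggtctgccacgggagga
Slc7a11: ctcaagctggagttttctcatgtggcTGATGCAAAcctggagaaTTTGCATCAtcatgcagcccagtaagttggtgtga
Slc1a4: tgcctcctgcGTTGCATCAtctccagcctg
Asns: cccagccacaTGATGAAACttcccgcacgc
Gars: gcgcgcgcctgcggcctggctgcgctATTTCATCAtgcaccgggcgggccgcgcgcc
Pck2: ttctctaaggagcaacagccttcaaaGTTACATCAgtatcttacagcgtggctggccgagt
Trib3: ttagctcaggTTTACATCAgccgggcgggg
Ppp1r15a: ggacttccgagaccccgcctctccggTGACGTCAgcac
Slc7a1: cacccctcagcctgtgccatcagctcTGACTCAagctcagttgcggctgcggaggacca
Ddit3: cgcgcgcaTGACTCActcacctcctccgcg
In GRCm38.p6 these stretches lie, in the same order, at chr2:119351022-119351082 (plus strand), chr3:50443627-50443705 (minus), chr11:20332699-20332728 (minus), chr6:7693213-7693242 (minus), chr6:55037944-55038000 (plus), chr14:55540136-55540196 (plus), chr2:152344028-152344057 (minus), chr7:45526269-45526306 (minus), chr5:148399995-148400053 (minus) and chr10:127290543-127290572 (plus). All but that of *Trib3*, which begins 4 bases into the transcript, begin upstream of the RefSeq start. The *Slc7a11* stretch holds the looser form in 2 copies, 1 on each strand.

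In silenced cultures, which held other cells beside neurons, the members covered a wide range of levels. Per kilobase of exon, the control mean was highest for *Slc1a4* (695 normalised counts per kb), a carrier of alanine, serine and cysteine, followed by *Atf4* (672) and *Slc7a5* (629). The lowest were *Trib3* (5.95), *Pck2* (19.4) and *Cebpb* (20.2). Time in silencing medium was tested among the controls: limma, at an adjusted p below 0.1, called 0 members and 0% of the genes tested between 6 or 10 h and 1 h, and 1 member in each comparison had an unadjusted p below 0.05 (edgeR and DESeq2 also called 0).

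RNA libraries held 8508452 to 36699187 reads in genes, the deepest being control 1 h library A, and ATAC libraries 1241829 to 6236439 reads in peaks, the shallowest being KCl 6 h library B. Summed normalised counts of 8 neuronal markers were 44601 to 49767 in controls and 42211 to 48792 at 6 h of KCl. Markers of other cells were present too: the 8 of astrocytes and radial glia summed to 20499 to 26297 in controls and 17743 to 22259 at 6 h of KCl, and the 4 of dividing cells to 3945 to 6629 and 2844 to 3188. The 7 of the oligodendrocyte lineage summed to 6080 to 6490 in controls, 4610 to 5133 at 1 h of KCl and 6972 to 7352 at 6 h. At 10 h of KCl the sum of astrocytes and radial glia was 18532 to 20076 and that of dividing cells 2744 to 3064, both below all controls. The oligodendrocyte sum was then 6689 to 7411, above all controls, and the neuronal sum 47119 to 49851. With BDNF the neuronal sum was 50880 to 51820 at 1 h, above all controls, the sum of dividing cells 3466 to 3792 at 6 h and 3575 to 3718 at 10 h, below all controls, and the oligodendrocyte sum 6505 to 6808 at 1 h, above, and 5718 to 5845 at 6 h, below all controls. The 7 of microglia summed to 141 to 211 and the 6 of vascular cells to 1699 to 2919 in controls, where the endothelial Cldn5 was under 1. The part of these cells in the results was not tested. Several members overlap other annotated genes, on the opposite strand (*Ddit3* with *Mars*, *Atf5* with Il4i1 and Nup62, *Wars* with Wdr25) or on the same strand (*Aars* with Exosc6), and reads of shared stretches cannot be told apart, since the strand of counting is not given in the sources used here.

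By 6 h most members had risen with either stimulus. In the comparisons with controls, limma at an adjusted p below 0.1 called 15 members higher and 3 lower at 1 h of BDNF, where 21.3% and 19% of all genes tested were called higher and lower. It called 22 higher and 1 lower at 6 h (all genes 22.1% and 21.1%), then 22 and 1 at 10 h (21.1% and 19.5%). For KCl the counts were 14 higher and 6 lower at 1 h (26.5% and 28.2%), 24 and 3 at 6 h (33.4% and 33.1%), and 24 and 2 at 10 h (29% and 28.2%). The median log2 fold change of the 32 members was 0.15, 0.49 and 0.41 at the 3 times of BDNF and 0.11, 0.59 and 0.49 at those of KCl, whereas that of all genes tested lay between -0.0066 and 0.0075. Counts at 1 h moved with single libraries: the count at 1 h of BDNF was 11 in place of 18 without BDNF 1 h library B, and that at 1 h of KCl 12 in place of 20 without KCl 1 h library A. All fold changes are differences of log2(normalised count + 1), and all comparisons with controls share the same 6 control libraries. Leaving out 1 library of a stimulated pair leaves that group with 1, so a call can be lost with little change in its fold change.

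**Figure D1:**
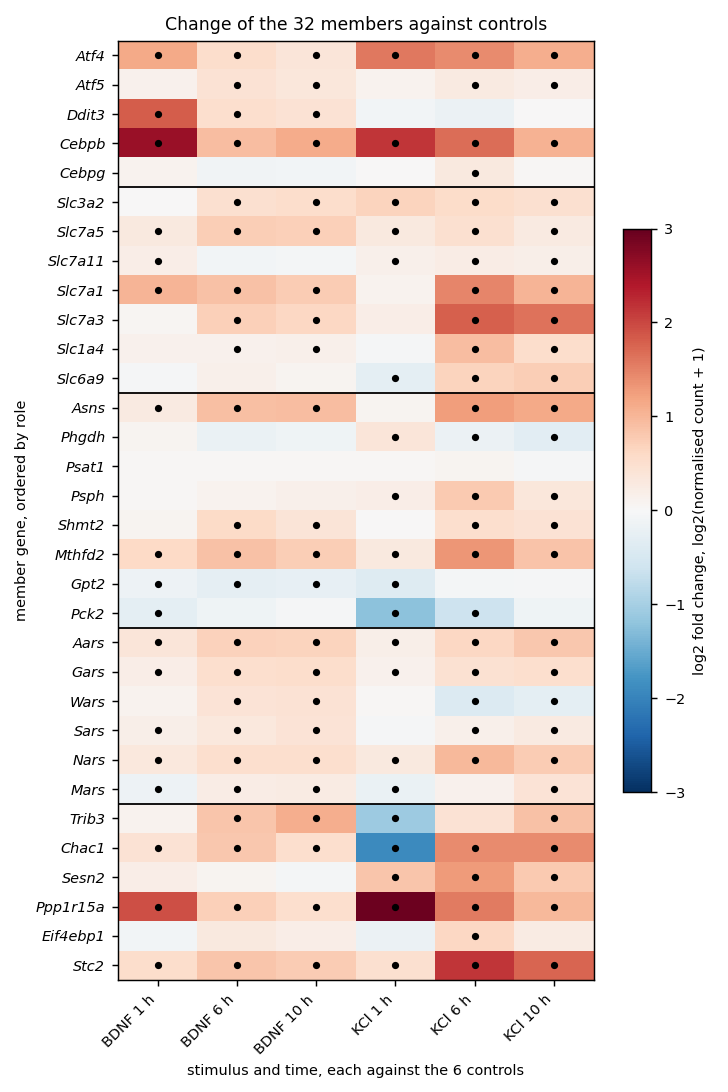
Log2 fold change (colour) of each of the 32 members (vertical axis, ordered by role, with lines between roles) against the 6 controls, for each stimulus and time (horizontal axis). Dots mark an adjusted p below 0.1: *Ddit3* is dotted at the 3 times of BDNF and at none of KCl, and *Chac1* is blue at 1 h of KCl (-1.90) and red in the other 5 columns.

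Of the 32 members, 14 were called higher at all 3 times of BDNF and 13 at all 3 times of KCl. A further 8 for BDNF and 9 for KCl were called higher at 6 and 10 h and not at 1 h. Never called higher with BDNF were 9 members, among them *Sesn2*, *Psph* and *Slc6a9*, and never with KCl were 5, *Ddit3*, *Psat1*, *Gpt2*, *Pck2* and *Wars*. The share of all genes with each of these patterns over time was not computed, so these counts have no background beside them. By role, all 7 transporters were called higher at 6 and 10 h of KCl and 5 of 7 at those times of BDNF. All 6 synthetases were called higher at 6 and 10 h of BDNF, and 4 and 5 of them at these times of KCl. Of all genes tested, 22.1% and 21.1% were called higher at 6 and 10 h of BDNF, and 33.4% and 29% at those of KCl. Among the 8 enzymes, calls went in both directions in each of the 6 comparisons.

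**Figure D2:**
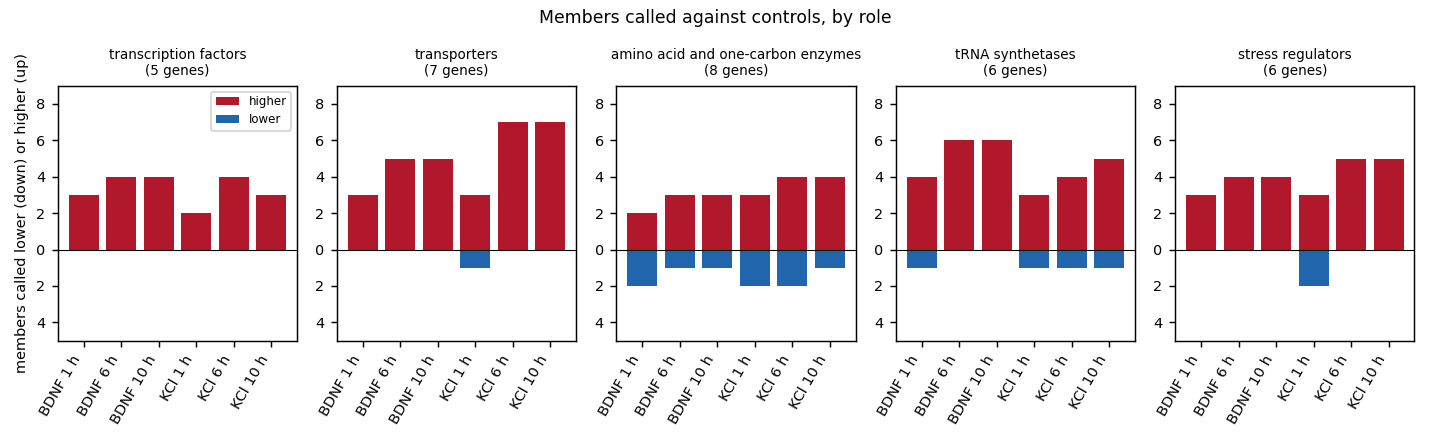
Number of members called higher (red, upward) or lower (blue, downward) at an adjusted p below 0.1 against the 6 controls (vertical axis), by role (panels) and by stimulus and time (horizontal axis). Transporters reach 7 of 7 at 6 and 10 h of KCl and synthetases 6 of 6 at 6 and 10 h of BDNF.

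*Atf4* itself (chr15:80255184-80257541, plus strand, GRCm38 as are all gene positions here) rose at every time of both stimuli, with its highest means at 1 h, and was higher with KCl than with BDNF. Control libraries held 1496 to 1711 (median 1572) normalised counts of *Atf4*, BDNF libraries 3613 and 3406 (1 h), 2275 and 2259 (6 h), 1950 and 2131 (10 h), and KCl libraries 5103 and 4401 (1 h), 4025 and 4506 (6 h), 3158 and 3549 (10 h). All 12 stimulated libraries lay above all 6 controls. The log2 fold change was 1.15 (SE 0.072, adjusted p = 2.99e-11) at 1 h and 0.37 (SE 0.072, adjusted p = 5.39e-04) at 10 h of BDNF, against 1.58 (SE 0.072, adjusted p = 8.97e-14) and 1.08 (SE 0.072, adjusted p = 8.86e-11) for KCl. Compared directly, BDNF was below KCl at each time, with a log2 difference of -0.43 (SE 0.088, adjusted p = 4.91e-04) at 1 h, -0.91 at 6 h and -0.72 at 10 h.

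*Ddit3* (CHOP; chr10:127290774-127296288, plus strand), a Cebp-family factor induced by Atf4 in stressed cells, rose with BDNF and was not called with KCl. Control libraries held 156 to 194 (median 174) normalised counts of *Ddit3*, BDNF libraries 629.5 and 603 (1 h), 253 and 242 (6 h), 235 and 236 (10 h), and KCl libraries 184 and 148 (1 h), 170.1 and 139 (6 h), 193 and 163 (10 h). BDNF libraries lay above all controls at each time, and KCl libraries within or just under the control range. The rise with BDNF was 1.81 (SE 0.11, adjusted p = 1.63e-11) on the log2 scale at 1 h, 0.50 at 6 h and 0.43 at 10 h, and the change from 1 to 6 h was -1.31 (adjusted p = 1.95e-07). KCl gave -0.085 (95% interval -0.31 to 0.14), -0.18 and 0.022 at the 3 times, and BDNF exceeded KCl by 1.90 (SE 0.13, adjusted p = 3.39e-10) at 1 h. The annotated 3′ ends of *Ddit3* and *Mars* overlap.

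*Cebpb*, a partner of Atf4 on composite elements, had the largest fold change of the members at each time of BDNF. Control libraries held 16.5 to 45.7 (median 30.9) normalised counts of *Cebpb*, BDNF libraries 169 and 194 (1 h), 66.7 and 47.6 (6 h), 59.9 and 68.1 (10 h), and KCl libraries 156 and 113 (1 h), 71.8 and 127 (6 h), 80.7 and 46.8 (10 h). Every stimulated library lay above the highest control. Its log2 fold changes were, with BDNF 2.59, 0.93 and 1.11, with KCl 2.15, 1.68 and 1.05. Counts were low, and 3 of the later calls were not made without 1 library: at 6 h of BDNF without BDNF 6 h library A (0.69, adjusted p = 0.235), at 10 h of BDNF without BDNF 10 h library B (1.01, adjusted p = 0.101), and at 10 h of KCl without KCl 10 h library A (0.67, adjusted p = 0.168). *Atf5*, a relative of Atf4 with the same kind of upstream reading frames, was called higher at 6 and 10 h of BDNF (0.44 and 0.35) and of KCl (0.27 and 0.21), though at 6 h of KCl not without KCl 6 h library A (0.092, adjusted p = 0.366) and at 10 h of KCl not without KCl 10 h library A (0.19, adjusted p = 0.155). *Cebpg*, another Cebp partner, was called once, at 6 h of KCl with 0.29 (SE 0.083, adjusted p = 0.00448), and not without KCl 6 h library B (0.17, adjusted p = 0.161).

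Among the transporters, *Slc7a5* (LAT1) imports leucine and other large neutral amino acids as a dimer with the heavy chain *Slc3a2* (CD98hc), and both rose with each stimulus. Control libraries held 2199 to 2515 (median 2333) normalised counts of *Slc7a5*, BDNF libraries 2801 and 2919 (1 h), 3819 and 3959 (6 h), 3892 and 3742 (10 h), and KCl libraries 2665 and 3014 (1 h), 3089 and 3381 (6 h), 2996 and 2659 (10 h). All stimulated libraries lay above all controls, and the 4 libraries of 6 and 10 h of BDNF were the highest. At 6 h the log2 fold change was 0.74 (SE 0.065, adjusted p = 1.26e-08) for BDNF and 0.47 (SE 0.065, adjusted p = 2.23e-06) for KCl, and at 10 h BDNF exceeded KCl by 0.44 (SE 0.08, adjusted p = 1.83e-04). For the heavy chain, control libraries held 1353 to 1515 (median 1434) normalised counts of *Slc3a2*, BDNF libraries 1461 and 1450 (1 h), 1885 and 2124 (6 h), 2044 and 2098 (10 h), and KCl libraries 2253 and 2337 (1 h), 1992 and 2217 (6 h), 2063 and 1967 (10 h). BDNF libraries of 1 h lay within the control range, whereas KCl libraries of 1 h were the highest of all. The change at 1 h was 0.023 (SE 0.064, adjusted p = 0.824) for BDNF and 0.68 (SE 0.064, adjusted p = 1.31e-08) for KCl, a direct difference of -0.66. At 6 h the direct difference was -0.07 (95% interval -0.23 to 0.092).

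The cationic amino acid carriers *Slc7a1* (CAT1; chr5:148327410-148399904, minus strand) and *Slc7a3* (CAT3), which import arginine and lysine, rose with each stimulus on different courses. Control libraries held 969.7 to 1122 (median 1039) normalised counts of *Slc7a1*, BDNF libraries 2035 and 2194 (1 h), 1930 and 1892 (6 h), 1816 and 1724 (10 h), and KCl libraries 1206 and 1019 (1 h), 2802 and 2902 (6 h), 2107 and 2128 (10 h). With BDNF the libraries of 1 h were as high as the later ones, whereas with KCl 1 of the 2 libraries of 1 h lay within the control range and those of 6 h were the highest of all. At 1 h the log2 fold change was 1.02 (SE 0.068, adjusted p = 8.12e-11) for BDNF and 0.10 (SE 0.068, adjusted p = 0.263) for KCl, and at 6 h 0.88 and 1.46. BDNF minus KCl was 0.93 (SE 0.084, adjusted p = 1.29e-08) at 1 h and -0.58 (SE 0.084, adjusted p = 6.40e-06) at 6 h, so that its sign turned between these times. For the second carrier, control libraries held 66.1 to 109 (median 84.4) normalised counts of *Slc7a3*, BDNF libraries 102 and 75.6 (1 h), 141 and 136 (6 h), 136 and 126 (10 h), and KCl libraries 100.0 and 95.2 (1 h), 295 and 298 (6 h), 293 and 232 (10 h). Libraries of 1 h lay within the control range with both stimuli, and the 4 late KCl libraries were the highest. At 6 h the change was 1.80 (SE 0.16, adjusted p = 3.22e-09) for KCl and 0.71 (SE 0.16, adjusted p = 0.00134) for BDNF, a direct difference of -1.09 (SE 0.19, adjusted p = 7.28e-05).

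*Slc7a11* (xCT; chr3:49892526-50443614, minus strand), which exchanges glutamate for cystine and dimerises with the same heavy chain, had the smallest changes of the transporters, at most 0.23 on the log2 scale. Control libraries held 1456 to 1600 (median 1546) normalised counts of *Slc7a11*, BDNF libraries 1784 and 1770 (1 h), 1453 and 1478 (6 h), 1447 and 1495 (10 h), and KCl libraries 1802 and 1632 (1 h), 1614 and 2013 (6 h), 1766 and 1735 (10 h). Libraries of BDNF at 1 h and of KCl at each time lay above the highest control, and the late BDNF libraries at the lower end of the control range or just under it. Its log2 fold changes were, with BDNF 0.21, -0.072 and -0.066, with KCl 0.15, 0.23 and 0.18, those at 6 and 10 h of BDNF not being called. None of the 4 calls held on leaving out each library: that at 1 h of BDNF was not made without BDNF 1 h library A (0.20, adjusted p = 0.161) or BDNF 1 h library B (0.21, adjusted p = 0.12), at 1 h of KCl without control 1 h library B (0.14, adjusted p = 0.118) or KCl 1 h library A (0.084, adjusted p = 0.495), at 6 h of KCl without KCl 6 h library B (0.068, adjusted p = 0.451), and at 10 h of KCl without KCl 10 h library A (0.17, adjusted p = 0.151) or KCl 10 h library B (0.20, adjusted p = 0.103).

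*Slc1a4* (ASCT1) and *Slc6a9* (GlyT1), which carries glycine, rose with KCl at 6 h, by 0.92 (SE 0.058, adjusted p = 2.20e-11) and 0.66 (SE 0.11, adjusted p = 3.32e-05) on the log2 scale. With BDNF *Slc6a9* was not called, and *Slc1a4* was called at 6 h (0.14) and 10 h (0.15). Neither BDNF call held: at 6 h it was not made without control 10 h library A (0.11, adjusted p = 0.13), BDNF 6 h library A (0.17, adjusted p = 0.126) or BDNF 6 h library B (0.10, adjusted p = 0.428), and at 10 h not without BDNF 10 h library A (0.10, adjusted p = 0.381). The direct difference at 6 h was -0.79 (adjusted p = 1.13e-08) for *Slc1a4* and -0.52 (adjusted p = 0.00365) for *Slc6a9*.

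**Figure D3:**
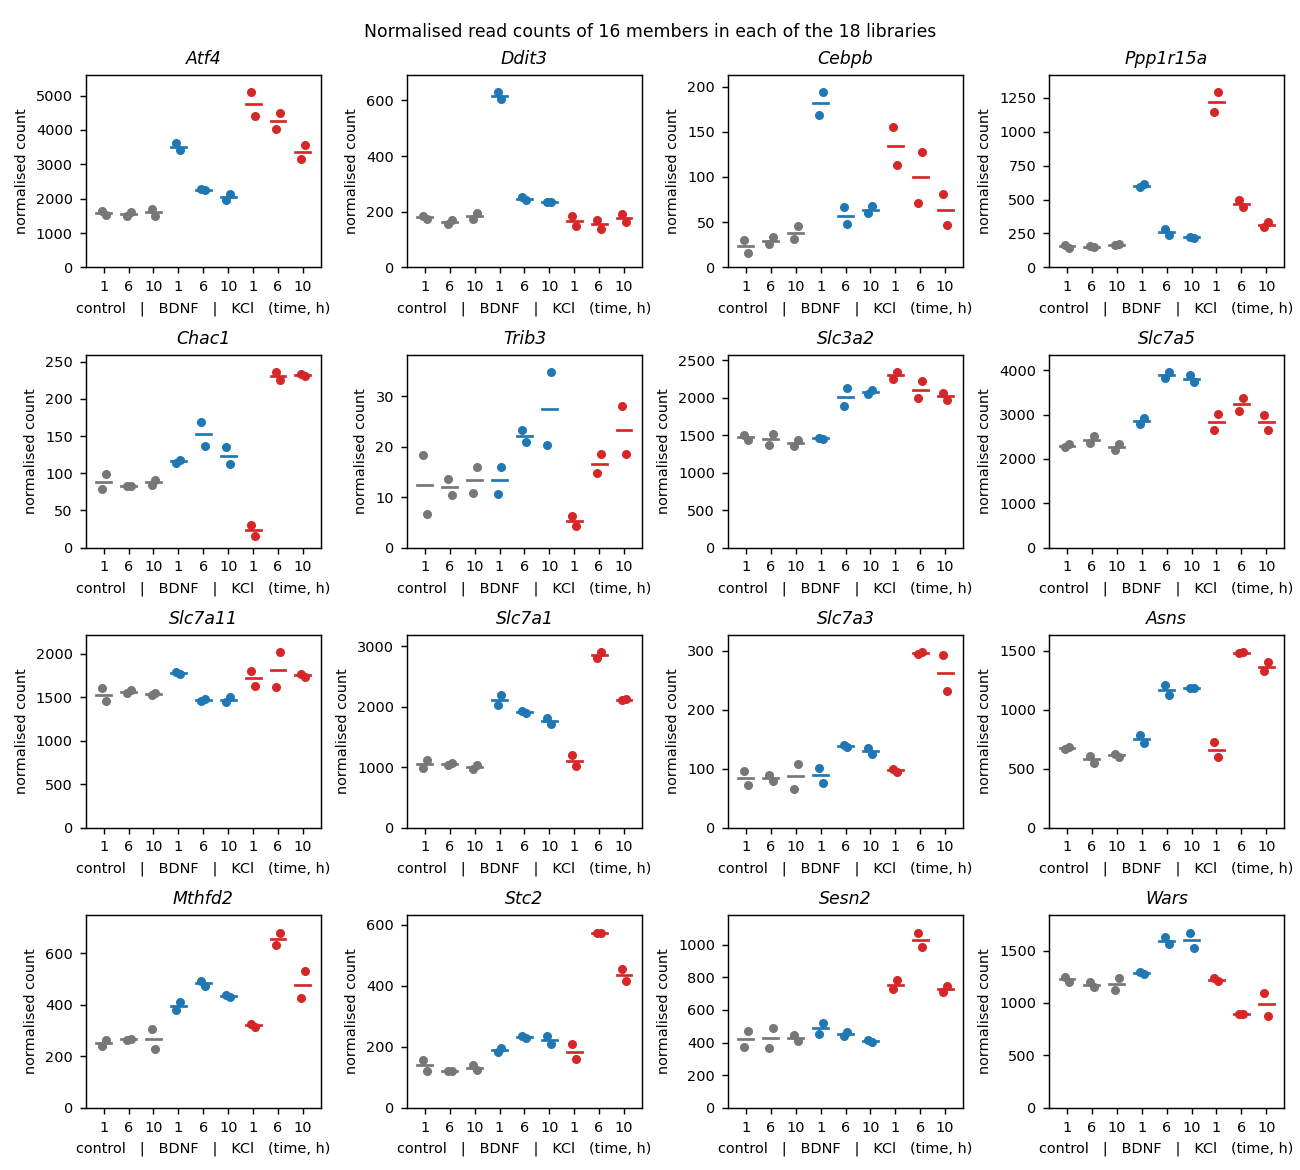
Normalised read counts (vertical axis, from 0) of 16 members in each of the 18 RNA libraries, by control (grey), BDNF (blue) and KCl (red) and by time in h (horizontal axis). Points are libraries and lines the mean of the 2: *Atf4* and *Ppp1r15a* have their highest mean at 1 h of KCl, *Ddit3* at 1 h of BDNF, and *Slc7a3*, *Asns* and *Stc2* at 6 h of KCl.

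Among the enzymes, *Asns*, which makes asparagine and is a textbook target of Atf4, and *Mthfd2*, a mitochondrial folate enzyme, rose most. Control libraries held 551 to 685 (median 620.1) normalised counts of *Asns*, BDNF libraries 789 and 721 (1 h), 1212 and 1124 (6 h), 1185 and 1184 (10 h), and KCl libraries 725 and 602 (1 h), 1479 and 1488 (6 h), 1329 and 1404 (10 h). Libraries of 6 and 10 h lay above all controls, and 1 of the 2 KCl libraries of 1 h lay within their range. At 6 h the log2 fold change was 0.90 (SE 0.081, adjusted p = 1.49e-08) for BDNF and 1.25 (SE 0.081, adjusted p = 3.00e-11) for KCl, and BDNF minus KCl was -0.35 (SE 0.099, adjusted p = 0.006) at 6 h and -0.21 (SE 0.099, adjusted p = 0.108) at 10 h. The smaller rise at 1 h of BDNF, 0.27 (adjusted p = 0.0114), was not called without BDNF 1 h library A (0.21, adjusted p = 0.207) or against controls of the same time alone (0.15, adjusted p = 0.276). For the folate enzyme, control libraries held 227 to 308 (median 264) normalised counts of *Mthfd2*, BDNF libraries 380.2 and 409.9 (1 h), 493 and 475 (6 h), 439 and 429 (10 h), and KCl libraries 327 and 314 (1 h), 634 and 681 (6 h), 427 and 530.4 (10 h). All stimulated libraries lay above all controls. Its change at 6 h was 0.89 (SE 0.099, adjusted p = 3.57e-07) for BDNF and 1.33 (SE 0.099, adjusted p = 2.56e-10) for KCl. *Shmt2*, the mitochondrial serine hydroxymethyltransferase of the same folate cycle, was called higher at 6 h with both, by 0.57 and 0.50, and BDNF minus KCl was then 0.071 (95% interval -0.11 to 0.25).

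The 3 enzymes of serine synthesis did not move together. *Phgdh*, the first step, was called higher at 1 h of KCl (0.37, SE 0.091, adjusted p = 0.00178) and lower at 10 h (-0.33, SE 0.091, adjusted p = 0.00525). It was also called lower at 6 h of KCl, -0.19 (adjusted p = 0.0828), but not by DESeq2 (-0.19, adjusted p = 0.107), not against controls of the same time (-0.17, adjusted p = 0.245), and not without control 1 h library B (-0.17, adjusted p = 0.135), control 6 h library B (-0.17, adjusted p = 0.122), control 10 h library A (-0.15, adjusted p = 0.15) or KCl 6 h library A (-0.084, adjusted p = 0.552). *Psat1*, the second, was not called in any of the 13 comparisons of stimulated groups, and its 6 changes against controls lay between -0.036 and 0.071, each with an SE of 0.13. *Psph*, the last, was called higher at 6 h of KCl (0.79, SE 0.093, adjusted p = 2.57e-07) and not with BDNF (0.11 at 6 h). Its call at 1 h of KCl, 0.20 (adjusted p = 0.0887), was not made on leaving out any of the 8 libraries except control 10 h library A (adjusted p 0.112 to 0.333).

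*Pck2*, the mitochondrial PEP carboxykinase, and *Gpt2*, an alanine aminotransferase, fell. Control libraries held 135 to 163 (median 151) normalised counts of *Pck2*, BDNF libraries 135 and 111 (1 h), 126 and 150.0 (6 h), 144 and 149 (10 h), and KCl libraries 56.8 and 71.6 (1 h), 101 and 93.8 (6 h), 141 and 137 (10 h). KCl libraries of 1 and 6 h lay below all controls, and those of 10 h within their range. The log2 fold change of *Pck2* was -1.23 (SE 0.12, adjusted p = 2.93e-08) at 1 h, -0.63 at 6 h and -0.12 at 10 h of KCl. At 1 h of BDNF it was -0.30 (adjusted p = 0.0677), a call that was not made without control 6 h library B (-0.28, adjusted p = 0.105), control 10 h library A (-0.27, adjusted p = 0.106) or BDNF 1 h library B (-0.16, adjusted p = 0.534). *Gpt2* stood at -0.38 at 1 h of KCl and at -0.27 and -0.24 at 6 and 10 h of BDNF, the last of which was not called without BDNF 10 h library B (-0.24, adjusted p = 0.101).

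The 6 cytosolic synthetases, which charge tRNAs with alanine, glycine, tryptophan, serine, asparagine and methionine, were all called higher at 6 and 10 h of BDNF and diverged with KCl. At 6 h of BDNF the log2 fold change was 0.70 for *Aars*, 0.51 for *Gars*, 0.42 for *Wars*, 0.32 for *Sars*, 0.51 for *Nars* and 0.23 for *Mars*, that of *Mars* not being called without BDNF 6 h library A (0.18, adjusted p = 0.179). At 10 h of BDNF *Mars* was at 0.25 (adjusted p = 0.00941), a call that was not made without BDNF 10 h library A (0.20, adjusted p = 0.138) or against controls of the same time (0.21, adjusted p = 0.115). At 6 h of KCl *Nars* rose by 0.96 (SE 0.07, adjusted p = 2.00e-10), *Aars* by 0.62 and *Gars* by 0.46, whereas *Wars* (chr12:108860030-108894174, minus strand) fell. Control libraries held 1120 to 1243 (median 1201) normalised counts of *Wars*, BDNF libraries 1297 and 1272 (1 h), 1630 and 1558 (6 h), 1672 and 1527 (10 h), and KCl libraries 1240 and 1207 (1 h), 893 and 895 (6 h), 1098 and 873 (10 h). BDNF libraries lay above all controls at each time, KCl libraries of 1 h within their range, and KCl libraries of 6 and 10 h below all of them. For *Wars* the change at 6 h was 0.42 (SE 0.072, adjusted p = 1.06e-04) with BDNF and -0.42 (SE 0.072, adjusted p = 3.90e-05) with KCl, and at 10 h 0.42 and -0.28. BDNF exceeded KCl by 0.83 (SE 0.089, adjusted p = 9.74e-08) and 0.71 (SE 0.089, adjusted p = 1.96e-06) at these times. The fall at 10 h of KCl was not called without KCl 10 h library B (-0.12, adjusted p = 0.258). For *Gars*, by contrast, BDNF minus KCl was 0.053 at 6 h, with a 95% interval of -0.10 to 0.21.

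Among the stress regulators, *Ppp1r15a* (GADD34; chr7:45522916-45526268, minus strand), whose promoter holds the cyclic AMP response element, had the largest change of any member against controls, at 1 h of KCl. Control libraries held 146 to 169 (median 160.1) normalised counts of *Ppp1r15a*, BDNF libraries 593 and 611 (1 h), 283 and 237 (6 h), 226 and 220.2 (10 h), and KCl libraries 1147 and 1292 (1 h), 495 and 442 (6 h), 296 and 331 (10 h). All stimulated libraries lay above all controls, and those of 1 h were the highest of each stimulus. At 1 h the log2 fold change was 1.93 (SE 0.092, adjusted p = 2.33e-13) for BDNF and 2.94 (SE 0.092, adjusted p = 1.42e-16) for KCl, and at 10 h 0.50 and 0.98. BDNF minus KCl at 1 h was -1.01 (SE 0.11, adjusted p = 2.77e-07).

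*Chac1* (chr2:119351229-119354381, plus strand), an enzyme that degrades glutathione and a known target of Atf4, took opposite directions at 1 h. Control libraries held 78.8 to 98.7 (median 83.5) normalised counts of *Chac1*, BDNF libraries 114 and 118 (1 h), 168 and 136 (6 h), 136 and 112 (10 h), and KCl libraries 30.9 and 16 (1 h), 236 and 226 (6 h), 233 and 231 (10 h). At 1 h both KCl libraries lay below all controls and both BDNF libraries above them, and at 6 and 10 h all stimulated libraries lay above all controls, with those of KCl the highest. For KCl the log2 fold change was -1.90 (SE 0.17, adjusted p = 4.68e-09) at 1 h and 1.41 (SE 0.17, adjusted p = 2.64e-07) at 6 h, a rise of 3.31 (SE 0.21, adjusted p = 3.45e-11) between them. For BDNF it was 0.43 (adjusted p = 0.0545) at 1 h, 0.81 (adjusted p = 6.76e-04) at 6 h and 0.51 (adjusted p = 0.0231) at 10 h. The call at 1 h of BDNF was not made without BDNF 1 h library A (0.45, adjusted p = 0.194) or BDNF 1 h library B (0.40, adjusted p = 0.23), nor against controls of the same time (0.39, adjusted p = 0.228), and that at 10 h not without BDNF 10 h library A (0.38, adjusted p = 0.253). BDNF minus KCl was 2.33 (SE 0.21, adjusted p = 9.08e-09) at 1 h, -0.60 at 6 h and -0.91 at 10 h, the difference at 6 h not being called without BDNF 6 h library B (-0.45, adjusted p = 0.164).

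*Trib3*, a pseudokinase that restrains Atf4 and Akt signalling, had the lowest counts of the members. Control libraries held 6.58 to 18.4 (median 12.3) normalised counts of *Trib3*, BDNF libraries 10.6 and 16 (1 h), 23.4 and 21 (6 h), 20.3 and 34.8 (10 h), and KCl libraries 6.17 and 4.28 (1 h), 14.7 and 18.5 (6 h), 28.1 and 18.5 (10 h). KCl libraries of 1 h lay below all controls, and BDNF libraries of 6 and 10 h above them. The changes called were -1.08 (SE 0.33, adjusted p = 0.0101) at 1 h and 0.87 (SE 0.33, adjusted p = 0.0343) at 10 h of KCl, and 0.83 (SE 0.33, adjusted p = 0.0567) at 6 h and 1.08 (SE 0.33, adjusted p = 0.0163) at 10 h of BDNF. None of these 4 calls held on leaving out each library. At 1 h of KCl the call was not made without KCl 1 h library B (-0.86), and at 10 h of KCl without KCl 10 h library A (0.58). At 6 h of BDNF it was not made by limma without control 1 h library B (0.67, adjusted p = 0.101), BDNF 6 h library A (0.76) or BDNF 6 h library B (0.90). The last of these changes was no smaller than with both libraries. At 10 h of BDNF the call was not made without BDNF 10 h library B (0.71).

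*Stc2*, a secreted glycoprotein induced by Atf4, rose at every time of both stimuli and most at 6 h of KCl. Control libraries held 119 to 156 (median 123) normalised counts of *Stc2*, BDNF libraries 182 and 195 (1 h), 235 and 229.6 (6 h), 235 and 209.6 (10 h), and KCl libraries 209 and 160.4 (1 h), 574 and 574 (6 h), 456 and 414 (10 h). All stimulated libraries lay above all controls. At 6 h the log2 fold change was 2.14 (SE 0.11, adjusted p = 1.38e-12) for KCl and 0.83 (SE 0.11, adjusted p = 6.04e-06) for BDNF, a direct difference of -1.30 (SE 0.14, adjusted p = 1.11e-07). *Sesn2*, a leucine sensor that holds back mTORC1, was called with KCl and not with BDNF. Control libraries held 369 to 490.5 (median 427) normalised counts of *Sesn2*, BDNF libraries 455 and 519.8 (1 h), 438 and 462 (6 h), 418 and 403 (10 h), and KCl libraries 729 and 782 (1 h), 1074 and 984 (6 h), 706 and 746 (10 h). All KCl libraries lay above all other libraries. Its change at 6 h was 1.28 (SE 0.096, adjusted p = 2.89e-10) for KCl and 0.085 (SE 0.096, adjusted p = 0.523) for BDNF, and BDNF minus KCl was -1.19 (SE 0.12, adjusted p = 3.40e-08). *Eif4ebp1*, a translational repressor phosphorylated by mTORC1, was called at 6 h of KCl (0.63, SE 0.15, adjusted p = 0.00101) and in no other comparison with controls.

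Compared directly, the balance between the stimuli shifted with time. At 1 h, 9 members were called higher with BDNF than with KCl and 5 lower (all genes 24.6% and 18.2%). At 6 h there were 4 higher and 17 lower (29.6% and 27.8%), and at 10 h 3 and 12 (23.1% and 21.8%). At 1 h *Chac1*, *Ddit3* and *Trib3* had the largest differences on the BDNF side and *Ppp1r15a* and *Slc3a2* on the KCl side, that of *Trib3* not being called without BDNF 1 h library B (0.92, adjusted p = 0.19) or KCl 1 h library B (0.97, adjusted p = 0.162). The count at 1 h was 8 in place of 14 without BDNF 1 h library B and 9 without KCl 1 h library B. Members higher with BDNF were *Ddit3*, *Slc7a5*, *Pck2* and *Wars* at 6 h, and *Ddit3*, *Slc7a5* and *Wars* at 10 h. Of these, *Ddit3* at 10 h, 0.41 (adjusted p = 0.0211), was not called without KCl 10 h library B (0.29, adjusted p = 0.203), and *Pck2* at 6 h, 0.49 (adjusted p = 0.00886), not without BDNF 6 h library B (0.37, adjusted p = 0.116). At 1, 6 and 10 h the median difference over the 32 was 0.077, -0.31 and -0.15, beside 0.0074, 0.0023 and 0.0012 over all genes tested.

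**Figure D4:**
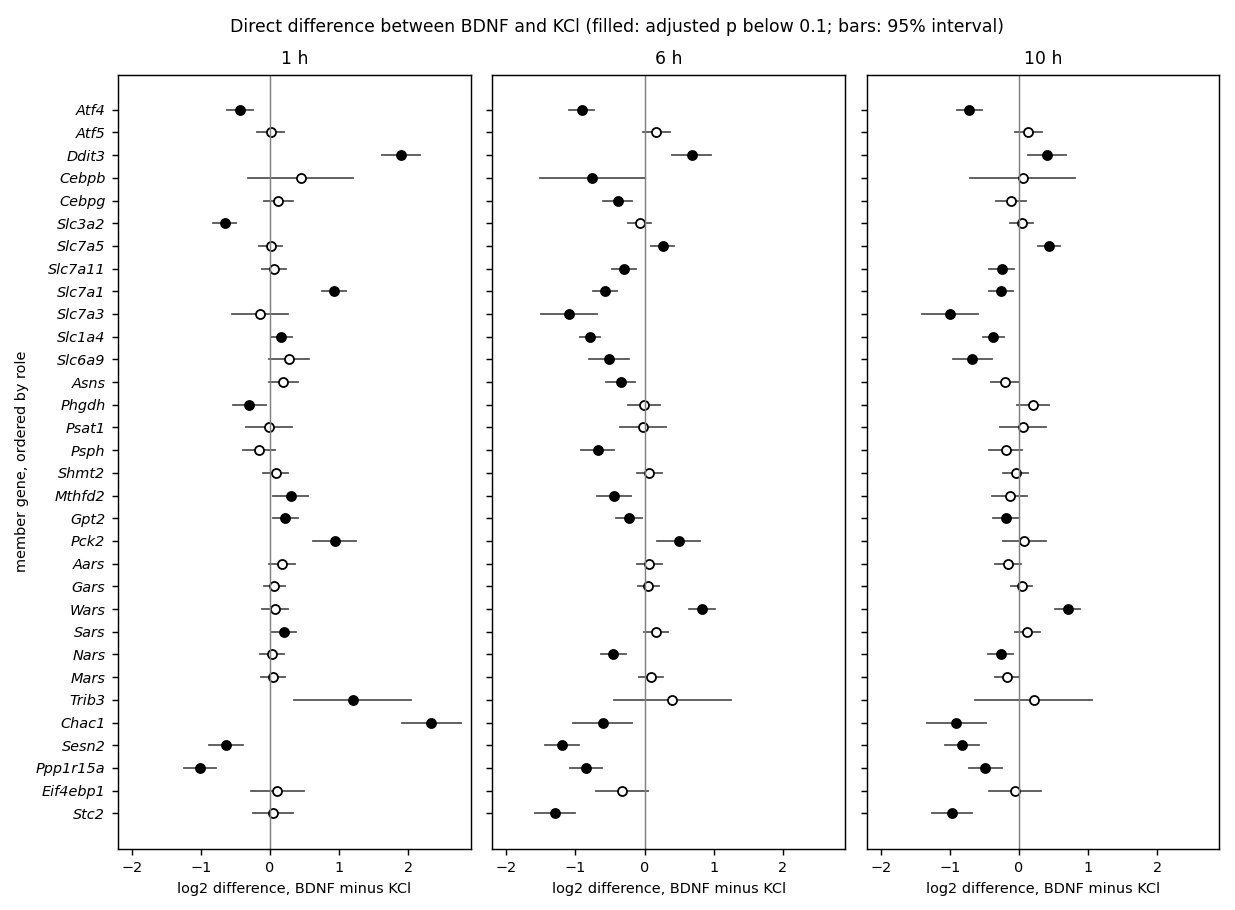
Log2 difference between BDNF and KCl (horizontal axis, BDNF minus KCl) for each of the 32 members (vertical axis) at 1, 6 and 10 h (panels), with 95% intervals from limma as bars and an adjusted p below 0.1 as filled points. Of the filled points, 9 of 14 lie right of 0 at 1 h, 17 of 21 left of 0 at 6 h and 12 of 15 left of 0 at 10 h.

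Within each stimulus, most calls fell between 1 and 6 h. For BDNF 12 members were higher and 6 lower at 6 h than at 1 h (all genes 15.8% and 17.7%). The largest falls were those of *Cebpb* (-1.67), *Ddit3* (-1.31), *Ppp1r15a* (-1.21) and *Atf4* (-0.63), and the largest gains those of *Slc7a3* (0.65) and *Asns* (0.63), the former not being called without BDNF 1 h library B (0.44, adjusted p = 0.214). For KCl 22 were higher and 3 lower (30.9% and 28.7%), the lower ones being *Ppp1r15a* (-1.38), *Phgdh* (-0.56) and *Wars* (-0.45). After *Chac1*, the largest gains were those of *Stc2* (1.64), *Slc7a3* (1.59), *Trib3* (1.51), *Slc7a1* (1.36) and *Asns* (1.17). From 6 to 10 h of BDNF limma called 0 members (0.074% of all genes higher and 0.142% lower), and 0 of 32 had an unadjusted p below 0.05 (edgeR and DESeq2 also called 0). From 6 to 10 h of KCl 2 members were higher and 9 lower (12.9% and 9.66%), the largest falls being those of *Ppp1r15a* (-0.58) and *Sesn2* (-0.50). This count was 5 in place of 11 without KCl 6 h library B, and also 5 without KCl 10 h library A.

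Genes of the same pathways outside the 32 were counted beside them, with no test of the lists. Of all genes tested, 21.3% were called higher and 19% lower at 1 h of BDNF, and 22.1% and 21.1% at 6 h of BDNF. At 6 h of KCl these shares were 33.4% and 33.1%. Of 15 eIF2 kinases, eIF2 and eIF2B subunits and related genes, 5 were called higher and 0 lower at 1 h of BDNF, 8 and 1 at 6 h of BDNF and 8 and 5 at 6 h of KCl. *Eif2ak3* (PERK), the kinase of the endoplasmic reticulum, had the largest change at 1 h of BDNF, 1.80 (adjusted p = 5.65e-14), beside 0.71 (adjusted p = 1.59e-07) at 1 h of KCl. *Ppp1r15b*, the constitutive phosphatase subunit, led at 1 h of KCl with 1.11 (adjusted p = 3.82e-11). Of the 14 other cytosolic synthetases, 12 were called higher and 0 lower at 6 h of BDNF, and 8 and 5 at 6 h of KCl. There the largest changes were those of the threonine enzyme *Tars* for BDNF, 0.81 (adjusted p = 2.88e-08), and of the aspartate enzyme *Dars* for KCl, -1.79 (adjusted p = 6.89e-13). *Dars* held 704 to 768 normalised counts in controls and 187 and 243 at 6 h of KCl, so that the groups did not overlap. Of the 17 mitochondrial synthetases, 1 was called higher and 9 lower at 1 h of BDNF. At 1 h of KCl these counts were 1 and 6 (all genes 26.5% and 28.2%). At 6 h, 2 were called higher and 0 lower with BDNF, and 6 and 9 with KCl. *Lars2*, the leucine enzyme, led the latter with 2.06 (adjusted p = 0.021), and its values were 1067 in KCl 6 h library A and 13903 in library B. Library B also held 435267 normalised counts of Gm42418, against 15630 in library A, and the part of this in the *Lars2* value was not tested.

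Of 22 other amino acid transporters, 5 were called higher and 7 lower at 6 h of BDNF (all genes 22.1% and 21.1%), and 11 and 6 at 6 h of KCl (33.4% and 33.1%). *Slc38a2* (SNAT2), a glutamine carrier known to respond to amino acid shortage, led at 1 h of KCl with 1.95 (adjusted p = 3.90e-15) and stood at 1.91 (adjusted p = 1.35e-14) at 6 h. For BDNF it was called higher at 1 h, 0.73 (adjusted p = 7.67e-08), and lower at 6 h, -0.38 (adjusted p = 3.62e-04). *Slc7a8* (LAT2), another light chain for large neutral amino acids, rose at 6 h of KCl, 1.94 (adjusted p = 1.36e-13), and fell at 6 h of BDNF, -0.58 (adjusted p = 2.31e-05). Of 17 other enzymes of amino acid and folate metabolism, 4 were called higher and 7 lower at 6 h of BDNF (all genes 22.1% and 21.1%). At 6 h of KCl 7 were called higher and 5 lower (33.4% and 33.1%). The aspartate aminotransferase *Got1* led for BDNF, 0.69 (adjusted p = 1.06e-06), and the transsulfuration enzyme *Cbs* for KCl, -1.85 (adjusted p = 5.17e-09). Of 18 other genes linked to Atf4 or stress, 8 were called higher and 1 lower at 1 h of BDNF (all genes 21.3% and 19%). At 1 h of KCl 9 were called higher and 3 lower (26.5% and 28.2%). *Atf3*, a stress-induced bZIP factor, led both, with 3.33 (adjusted p = 2.15e-11) and 2.14 (adjusted p = 1.69e-08). Of these 18, 6 were called higher and 5 lower at 6 h of BDNF (all genes 22.1% and 21.1%). At 6 h of KCl the counts were 9 and 1 (33.4% and 33.1%). At 10 h they were 4 and 6 for BDNF (21.1% and 19.5%) and 8 and 1 for KCl (29% and 28.2%). At 6 h the cell-cycle inhibitor *Cdkn1a* led for BDNF, 2.34 (adjusted p = 2.36e-10), and *Herpud1*, a factor of protein degradation at the endoplasmic reticulum, for KCl, 1.55 (adjusted p = 1.91e-12).

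Few promoter peaks of the members were called with LOESS offsets, and the number at 10 h depended on the scaling. A promoter peak, overlapping the window from 1000 bp before to 100 bp after an annotated start, was present for 31 members (all but *Slc7a3*), 37 peaks in all. By edgeR at an adjusted p below 0.1, 4 gained and 0 lost accessibility at 1 h of BDNF, 2 and 0 at 6 h, and 1 and 0 at 10 h. Over all tested promoter peaks of coding genes, 4.06% gained and 2.77% lost at 1 h of BDNF, then 1.52% and 0.859% at 6 h, then 1.79% and 1.67% at 10 h. For KCl, 4 member peaks gained and 1 lost at 1 h (5.39% and 3.75% of coding promoters), 1 and 0 at 6 h (2.35% and 3.1%), and 0 and 1 at 10 h (1.8% and 3.02%). With DESeq2 size factors the promoter counts at 10 h were 6 for BDNF and 8 for KCl in place of 1 and 1, with TMM scaling 3 and 4, and by the DESeq2 test 5 and 6, while at 6 h of KCl each of these 3 gave 2 in place of 1 and at 1 h of BDNF the DESeq2 test gave 2 in place of 4. The shares of coding promoters given here are for LOESS offsets only, so these other counts have no background beside them. The count at 1 h of KCl became 1 without KCl 1 h library A, 0 without KCl 1 h library B, and 3 without control 1 h library B or control 10 h library A. At 6 h of BDNF it became 1 without either BDNF 6 h library, and at 10 h 0 without BDNF 10 h library B and 2 without BDNF 10 h library A, control 1 h library B, control 6 h library B or control 10 h library A. At 6 h of KCl it became 0 without either KCl 6 h library, control 6 h library A, control 10 h library B or either control 1 h library and 2 without control 6 h library B. At 10 h of KCl leaving out KCl 10 h library A gave 0. The peaks behind these counts changed too. Without BDNF 6 h library B, neither peak called at 6 h with all libraries was called, so that count rested on another peak. At 1 h of BDNF, peaks not called with all libraries also entered the counts without library A or library B. Beside the peaks described next, the calls were gains at *Mthfd2* (0.40, SE 0.14, adjusted p = 0.0307) and *Phgdh* (0.94, SE 0.34, adjusted p = 0.0486) at 1 h of BDNF and at *Cebpg* (0.36, SE 0.13, adjusted p = 0.0814) at 6 h of KCl, and a loss at *Shmt2* (-1.22, SE 0.35, adjusted p = 0.0165) at 10 h of KCl. None of these 4 held on leaving out each library. The call at *Mthfd2* was not made without BDNF 1 h library A (0.36, adjusted p = 0.277) or BDNF 1 h library B (0.46, adjusted p = 0.127), that at *Phgdh* without BDNF 1 h library B (0.67, adjusted p = 0.519) or control 1 h library A (0.80, adjusted p = 0.114), and that at *Shmt2* without KCl 10 h library A (-1.01, adjusted p = 0.282). The call at *Cebpg* was not made with TMM scaling (0.19, adjusted p = 0.44) or without KCl 6 h library A (0.44, adjusted p = 0.245), KCl 6 h library B (0.30, adjusted p = 0.36), control 1 h library A (0.34, adjusted p = 0.111), control 1 h library B (0.32, adjusted p = 0.159), control 10 h library B (0.32, adjusted p = 0.142) or control 6 h library A (0.34, adjusted p = 0.118).

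A promoter peak of the heavy chain *Slc3a2* gained at all 3 times of BDNF. It lies at an annotated start inside the gene (chr19:8706882-8723369, minus strand). This peak (chr19:8712856-8714116) held 71.2 to 123 scaled counts in controls, 146 and 118 (1 h), 139.7 and 141 (6 h) and 150.4 and 156 (10 h) with BDNF, and 92.2 to 116 with KCl. BDNF libraries of 6 and 10 h lay above all controls, 1 of those of 1 h lay within their range, and so did all KCl libraries. The log2 fold change was 0.45 (SE 0.16, adjusted p = 0.0486) at 1 h, 0.54 (SE 0.16, adjusted p = 0.0148) at 6 h and 0.67 (SE 0.17, adjusted p = 0.00467) at 10 h of BDNF. The gain was not called at 1 h without BDNF 1 h library A (0.30, adjusted p = 0.534), control 1 h library B (0.40, adjusted p = 0.107) or control 10 h library A (0.39, adjusted p = 0.106), at 6 h without BDNF 6 h library A (0.54, adjusted p = 0.129) or BDNF 6 h library B (0.53, adjusted p = 0.174), or at 10 h without BDNF 10 h library B (0.64, adjusted p = 0.113). At 1 h it was also not called with TMM scaling (0.39, adjusted p = 0.102) and at 6 h not against controls of the same time (0.47, adjusted p = 0.191). At 1 h the RNA of *Slc3a2* was at 0.023 for BDNF and rose by 0.68 for KCl, where the peak was at 0.10 (SE 0.16, adjusted p = 0.798).

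The promoter peak with the largest change for each stimulus was one of 217 bp at a second annotated start of *Slc7a1* (chr5:148342458-148342674), inside the gene. It held few counts, 6.31 to 18.02 scaled counts in controls, 33.3 and 40.2 at 1 h of BDNF and 3.45 in both libraries of 1 h of KCl. BDNF libraries of 1 h lay above all controls and KCl libraries of 1 h below them. Its log2 fold change was 1.74 (SE 0.40, adjusted p = 4.08e-04) for BDNF and -1.63 (SE 0.58, adjusted p = 0.0769) for KCl at 1 h, when the RNA of *Slc7a1* was at 1.02 and 0.10. At 6 h of BDNF it was 1.09 (SE 0.42, adjusted p = 0.0973), a call that was not made without BDNF 6 h library B (0.26, adjusted p = 0.922), control 1 h library A (1.08, adjusted p = 0.119), control 10 h library B (0.99, adjusted p = 0.165), control 6 h library A (1.08, adjusted p = 0.121) or control 6 h library B (1.02, adjusted p = 0.149). The KCl change was not called without KCl 1 h library A (-1.63, adjusted p = 0.293), KCl 1 h library B (-1.61, adjusted p = 0.375), control 1 h library B (-1.52, adjusted p = 0.131) or control 10 h library A (-1.47, adjusted p = 0.131), and peaks were not compared directly between the stimuli. The 30 bases around the only motif match in this peak, a copy of the looser composite form (held by 3.26% of windows of this length at all peak centres), are printed with the match in capitals, on the plus strand of GRCm38 at chr5:148342538-148342567.
Slc7a1 internal start: gttatgttaaTGATGTAATttcctgccagg

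The 4 promoter gains at 1 h of KCl were those of *Slc7a1* at its main start (chr5:148399136-148400233), 0.47 (SE 0.12, adjusted p = 0.0132), *Slc7a11*, 0.77 (SE 0.25, adjusted p = 0.0495), *Slc6a9*, 0.41 (SE 0.13, adjusted p = 0.0481), and *Trib3*, 0.87 (SE 0.28, adjusted p = 0.0453). None was called against controls of the same time alone, and none held on leaving out each library. That of *Slc7a1* was not called without KCl 1 h library A (0.48, adjusted p = 0.123) or KCl 1 h library B (0.45, adjusted p = 0.18), that of *Slc7a11* without KCl 1 h library B (0.50, adjusted p = 0.583) or control 1 h library B (0.70, adjusted p = 0.105), that of *Slc6a9* without KCl 1 h library A (0.48, adjusted p = 0.143), KCl 1 h library B (0.32, adjusted p = 0.445) or control 10 h library A (0.36, adjusted p = 0.101), and that of *Trib3* without KCl 1 h library A (0.91, adjusted p = 0.205) or KCl 1 h library B (0.85, adjusted p = 0.285). RNA of *Slc6a9* and *Trib3* was called lower at the same time, -0.30 and -1.08, the first of which was not called without KCl 1 h library A (-0.31, adjusted p = 0.114) or KCl 1 h library B (-0.30, adjusted p = 0.129), and the second not without KCl 1 h library B (-0.86, adjusted p = 0.129).

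A further 57 peaks lay in the annotated bodies of members or within 10 kb of them, and 56 were tested. For BDNF 5 gained and 3 lost at 1 h (12.5% and 4.78% of all 56383 peaks tested), 3 and 0 at 6 h (8.88% and 1.75%), and 4 and 2 at 10 h (7.46% and 1.9%). For KCl 1 gained and 1 lost at 1 h (5.29% and 3.05%), 0 and 0 at 6 h (5.44% and 2.06%), and 0 and 1 at 10 h (5.91% and 1.96%). Some peaks lay below all controls with BDNF. One within *Slc7a11* (chr3:49944910-49945178) held 15.9 to 36.7 scaled counts in controls and 6.27 and 7.08 at 10 h of BDNF. One within *Cebpb* (chr2:167689484-167690037) held 25.1 to 40.9 in controls and 22.9 and 9.19 at 1 h of BDNF. The 2 peaks that gained at all 3 times of BDNF both lay within *Slc7a11*, whose RNA was not called at 6 and 10 h. One (chr3:50278378-50278620) lies in an intron of the longest annotated transcript and beyond the 3′ end of the others. It held 6.76 to 21.9 scaled counts in controls, and 43.9 and 42.4 (1 h), 31.9 and 33.2 (6 h) and 59.5 and 23.9 (10 h) with BDNF. All 6 BDNF libraries lay above all controls. The log2 fold change was 1.82 (SE 0.35, adjusted p = 2.09e-05) at 1 h, 1.41 (SE 0.36, adjusted p = 0.00314) at 6 h and 1.73 (SE 0.39, adjusted p = 5.72e-04) at 10 h, the last not being called without BDNF 10 h library A (0.96, adjusted p = 0.451) or against controls of the same time (1.29, adjusted p = 0.132). The other, centred 5374 bp from a start (chr3:50437954-50438509), gained by 1.07 (SE 0.25, adjusted p = 4.33e-04) at 1 h, and its gain was not called at 6 h without BDNF 6 h library B (0.92, adjusted p = 0.108) or at 10 h without BDNF 10 h library B (0.65, adjusted p = 0.432). The first is printed in full on the plus strand of GRCm38, as the member peak outside promoters with the lowest adjusted p at 1 h of BDNF. It holds 1 AP-1 element TGANTCA (capitals; in 14.6% of windows of this length at all peak centres) and neither composite form.
Slc7a11 intron: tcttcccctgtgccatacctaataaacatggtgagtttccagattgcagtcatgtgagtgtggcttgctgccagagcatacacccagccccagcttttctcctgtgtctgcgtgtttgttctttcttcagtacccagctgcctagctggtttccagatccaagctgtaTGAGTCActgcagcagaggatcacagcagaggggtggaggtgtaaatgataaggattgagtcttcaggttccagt

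**Figure D5:**
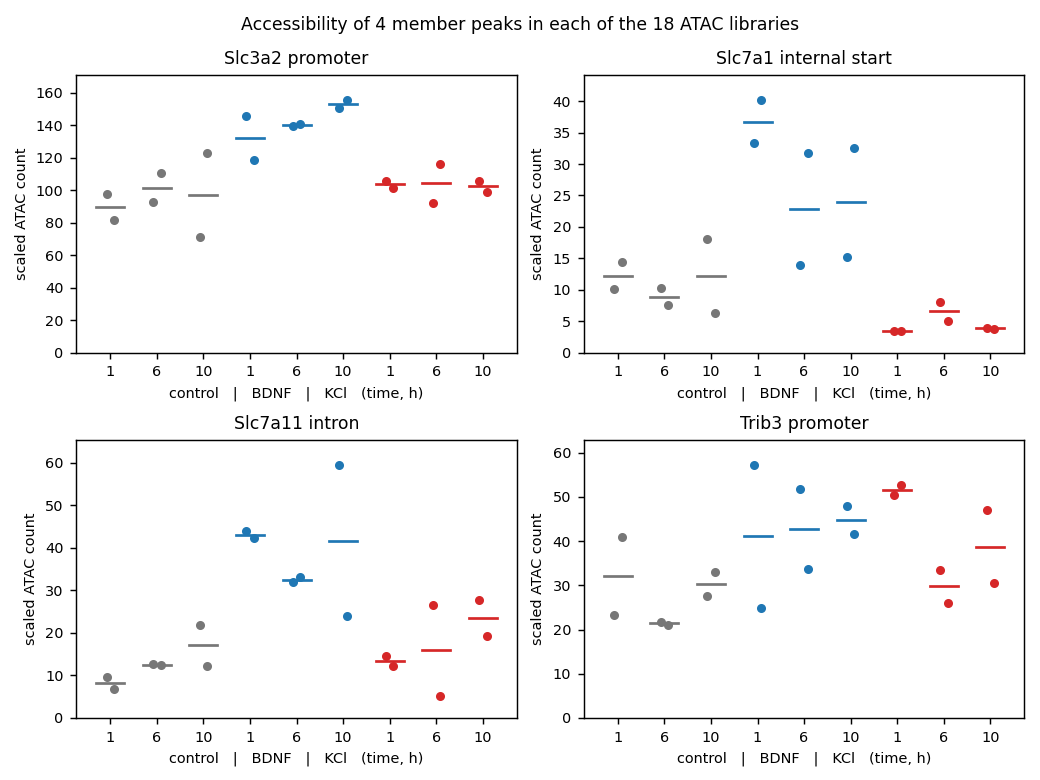
Scaled ATAC counts (vertical axis, from 0) of 4 member peaks in each of the 18 ATAC libraries, by control (grey), BDNF (blue) and KCl (red) and by time in h (horizontal axis), with points for libraries and lines for the mean of the 2. The *Slc7a11* intron peak is above every control in all 6 BDNF libraries, and the *Slc7a1* peak is at 3.45 in both KCl libraries of 1 h.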

How the data were processed

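RNA and open chromatin were measured in cultured mouse cortical neurons, in 18 RNA-seq and 18 ATAC-seq libraries of 9 groups (2 each), grouped by the labels. RNA reads had been aligned with TopHat2 to mm10 and counted by GENCODE M16 gene by the authors, and the deposited RNA signal is the read count divided by a DESeq2 size factor, from which every value gave whole reads within 0.01. The counting program and its strand setting are not given in the sources used here. ATAC reads had been aligned with Bowtie2 to mm10 by the authors, peaks called with MACS2 in each sample and kept where present in at least 2, and the deposited ATAC values are whole read counts (lowest 1) in 58177 peaks, under a name that calls them normalised. The authors' own comparison columns (fold changes, standard errors and p-values) were not used, apart from gene names: 24184 of 26709 genes were named by that table, and 2019 more by a GENCODE M21 table.

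RNA values were tested with limma 3.58.1 (trend, robust, two-sided) on log2(value + 1), in genes with a mean of at least 10, with 7 levels, the 6 controls being 1 level as in the study's methods, under R 4.3.3. ATAC counts were tested with the edgeR 4.0.16 quasi-likelihood test with LOESS offsets, in the 56383 peaks with a mean count of at least 10, and scaled counts are counts divided by the same offsets. Calls are at a Benjamini-Hochberg adjusted p below 0.1 over all genes or peaks tested. Both tests were first tested on simulated data. Depth limits members with low counts, such as *Trib3*, and small peaks. Peak coordinates were read as 1-based. Promoter sequences are those of RefSeq for GRCm38.p6, in which *Slc7a5*, *Slc7a3*, *Eif4ebp1*, *Nars* and *Wars* had no entry, and 1 further promoter is not reported here.

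Values in every library are given for the 3 members with the largest change among those called in each comparison with controls, for 8 members by role (*Atf4*, *Ddit3*, *Slc3a2*, *Slc7a5*, *Slc7a11*, *Asns*, *Chac1*, *Trib3*) and for members called in opposite directions by the stimuli, and other pathway genes are named where they led their list. The called promoter peak with the largest change for each stimulus was named. *Slc7a1*, *Pck2* and *Sesn2* by library, the remaining peaks and comparisons of single genes beyond this rule were chosen after their values were seen. The members and gene lists were chosen with earlier results of these data known. Alternatives were other pseudocounts, no filter, TMM scaling, edgeR and DESeq2 1.42.0 on the recovered reads, controls of the same time, an adjusted p below 0.01, a block by library letter, and each library left out.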

Additional observations from a re-analysis of the deposited data

Results flagged for a closer look

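In 4 of the 32 members 1 control library stood apart from the other 5. *Slc1a4* was lowest in control 10 h library A, with 2502 normalised counts, and *Psph* was highest there, with 254. *Aars* and *Sars* were both highest in control 1 h library A, the deepest RNA library, with 2206 and 1766 normalised counts. Chance flags about 1 in 20 groups, and the part of depth in these values was not tested.

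BDNF and KCl moved 2 members in opposite directions at the same time, and the difference between the stimuli was itself tested with limma. The share of all genes called in opposite directions was not computed, so this count has no background beside it. For *Chac1* at 1 h, BDNF minus KCl was 2.33 on the log2 scale (adjusted p = 9.08e-09). For *Wars* it was 0.83 (adjusted p = 9.74e-08) at 6 h and 0.71 (adjusted p = 1.96e-06) at 10 h. The *Chac1* call at 1 h of BDNF was lost without either BDNF 1 h library, with little change in its fold change. The *Wars* call at 10 h of KCl was lost without KCl 10 h library B. The direct differences were called without each library in turn.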

How the results depend on the processing

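Over the 32 members and 13 comparisons of stimulated groups, 241 of 416 were called. Of these calls 170 held under every alternative run, 71 were lost under at least 1, and no called change turned its sign. At an adjusted p below 0.01 the number of members called was 10 at 1 h of BDNF, 12 at 1 h of KCl, 8 for BDNF against KCl at 1 h, 11 from 1 to 6 h of BDNF and 4 from 6 to 10 h of KCl, and that of promoter peaks 1 and 0 at 1 and 6 h of BDNF and 0, 0 and 0 at the 3 times of KCl. Against controls of the same time alone (2 libraries), 11 members were called at 1 h of BDNF, and 0 promoter peaks at 6 h of BDNF and at 1 and 6 h of KCl. These lost calls included *Cebpb*, *Chac1* and *Trib3* at 10 h of BDNF (adjusted p = 0.131, 0.127 and 0.125), and *Trib3* at 6 h of BDNF was also not called by DESeq2 (adjusted p = 0.158). For promoter peaks the DESeq2 test called 2 and 5 at 1 and 10 h of BDNF and 2 and 6 at 6 and 10 h of KCl. DESeq2 size factors gave 6 at 10 h of BDNF and 2 and 8 at 6 and 10 h of KCl, and TMM scaling 3, 2 and 4. The cause was not tested. Counts under all these alternatives, and on leaving out libraries, are given without the share of all genes or peaks under the same setting. They therefore have no background beside them. Leaving out each library gave 11 to 17, 19 to 24 and 20 to 23 members called at 1, 6 and 10 h of BDNF and 12 to 20, 25 to 28 and 21 to 27 at those of KCl. It gave 8 to 13, 18 to 24 and 12 to 15 between the stimuli, 13 to 16 from 1 to 6 h of BDNF, and 24 to 27 and 5 to 15 from 1 to 6 and 6 to 10 h of KCl. Promoter peaks ranged over 3 to 4, 1 to 2 and 0 to 2 for BDNF and 0 to 5, 0 to 2 and 0 to 1 for KCl. Promoter peaks not called with all libraries entered some of these counts. A group left with 1 library was taken to vary like the others.

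TMM scaling moved the median of all RNA genes by at most 0.036. Deviations from group means of RNA libraries with the same letter correlated at -0.31 to 0.42 (median 0.065, 36 pairs of groups), so the letters were not taken to pair libraries. With them as a replicate block, 410 of 416 member results kept their call, 6 were newly called and 0 were lost. No paired analysis was possible for ATAC because its columns carry no replicate number.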
